A study of Mus musculus with 2 samples.

Results

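A set of 10 genes that mark embryonic stem (ES) cells, several of them known targets of the transcription factors OCT4 and SOX2, were followed at 72 h of differentiation in control and KDM5B-depleted mouse ES cells. They were taken by name: *Zfp42*, *Dppa2*, *Dppa3*, *Dppa4*, *Dppa5a*, *Eras*, *Utf1*, *Gdf3*, *L1td1* and *Fgf4*. They are 10 of 21935 gene symbols in the data, and each of the 10 was found. Their levels were read beside that of *Pou5f1*, the gene of OCT4, which was far lower in the KDM5B-depleted cells.

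Both groups were R1 ES cells, an established mouse line, kept on irradiated mouse embryonic fibroblasts with LIF, the cytokine that sustains self-renewal, and then placed for 72 h in low attachment dishes without LIF, where they form 3D aggregates. The shLuc group carried a short hairpin RNA (shRNA) against luciferase and is the control. The shKdm5b group carried one against *Kdm5b*, which encodes a demethylase of lysine 4 on histone H3. Both shRNAs came from lentiviral vectors under puromycin selection, so the control shares the vector and the drug. The comparison asks how the levels of ES cell genes at 72 h differ when KDM5B is depleted. Both libraries are from 72 h, so the course of silencing cannot be read. A difference present before LIF was withdrawn cannot be told from one that arose later.

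1 library of polyadenylated RNA was sequenced per condition. No difference below therefore has a replicate check, no p-value is given, and library and condition cannot be told apart. The libraries held 78172698 aligned reads for shLuc and 72702698 for shKdm5b, of which 67.9% and 66.3% were counted on genes. *Kdm5b* had 51378 and 1377 reads, or 104 and 3.01 RPKM (reads on a transcript scaled to its length in kilobases and to the aligned reads of the library), which left 2.88% of the shLuc level. A list of 12 fibroblast markers, listed because of the feeder cells, summed to 8.26 RPKM in shLuc and 8.25 in shKdm5b, with *Thy1* the highest at 4.08 and 4.59 RPKM and *Postn* at 3 and 0 reads.

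OCT4 and SOX2 bind DNA together, an octamer site beside a SOX site, and with NANOG they hold up the transcription of a large set of genes specific to ES cells. When LIF is withdrawn this network is shut down gradually, and ES cell markers are lost at different speeds. *Fgf4* and *Utf1* are textbook cases of genes with a composite OCT4-SOX2 enhancer, and *Zfp42* (REX1) is among the most used markers of undifferentiated ES cells.

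The sequence just before the start of transcription was inspected for these sites, because the genes are grouped here as OCT4-SOX2 targets. RefSeq windows on the GRCm38.p6 build were at hand for 5 of the 10 genes: *Zfp42*, *Eras*, *Utf1*, *L1td1* and *Fgf4*. The octamer (ATGCAAAT) and the SOX words CATTGT and CTTTGT were searched on both strands from 250 bases before to 50 bases after the start. The 250 bases before the start are shown 5′ to 3′ along the gene for the *Zfp42* and *Eras* windows, which each held a match (in capitals), and for *Utf1*, which held none.
Zfp42, chr8:43307010-43307259, minus strand: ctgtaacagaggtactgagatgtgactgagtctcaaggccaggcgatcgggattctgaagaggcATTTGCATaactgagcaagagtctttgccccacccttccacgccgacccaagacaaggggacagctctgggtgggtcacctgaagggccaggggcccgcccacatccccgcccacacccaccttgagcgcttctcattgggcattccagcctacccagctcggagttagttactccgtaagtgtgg
Eras, chrX:7928608-7928857, minus strand: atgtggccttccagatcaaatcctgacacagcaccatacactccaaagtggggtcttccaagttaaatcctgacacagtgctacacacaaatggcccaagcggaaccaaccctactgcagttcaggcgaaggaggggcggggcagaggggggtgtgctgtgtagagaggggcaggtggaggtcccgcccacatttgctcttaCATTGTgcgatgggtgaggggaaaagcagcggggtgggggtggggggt
Utf1, chr7:139943606-139943855, plus strand: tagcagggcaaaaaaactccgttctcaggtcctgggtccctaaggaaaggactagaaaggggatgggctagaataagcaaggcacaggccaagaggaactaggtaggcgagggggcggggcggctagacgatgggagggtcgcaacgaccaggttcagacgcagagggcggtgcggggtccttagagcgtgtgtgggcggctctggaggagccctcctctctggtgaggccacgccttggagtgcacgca
The capitals in *Zfp42* are the octamer read on the opposite strand, at -186 to -179 from the start. In *Eras* they are CATTGT, at -48 to -43. Of 32851 windows of this length, 1.74% held the octamer, 12.6% held CATTGT and 18.7% held CTTTGT, which was in 0 of the 5 windows of the marker genes. CATTGT followed after 1 base by ATGCAAAT was in 0 windows of any gene. A match is a run of letters and not a shown binding site, and the enhancers of *Utf1* and *Fgf4* known as OCT4-SOX2 targets lie outside these windows.

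Against a *Pou5f1* level in shKdm5b of 29.5% of that in shLuc, the 10 marker genes had ratios between 0.618-fold and 2.57-fold. *Pou5f1* had 619 RPKM in shLuc and 182 in shKdm5b, a log2 ratio (shKdm5b over shLuc, of RPKM + 0.1) of -1.76 with a 95% interval of -1.79 to -1.74. Intervals here are exact Clopper-Pearson intervals on the reads and cover counting error only, not the variation between cultures. The marker genes ran from -0.69 (*Gdf3*) to 1.33 (*Dppa3*), with a median of -0.01 and a median size of 0.31 regardless of sign. Over the 11804 genes that exceeded 1 RPKM in either library, the median was -0.21 and the median size was 0.56. Each of the 10 lay above *Pou5f1*, as did nearly all genes, since 3.17% of those compared had a lower ratio than *Pou5f1* had.

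**Figure D1:**
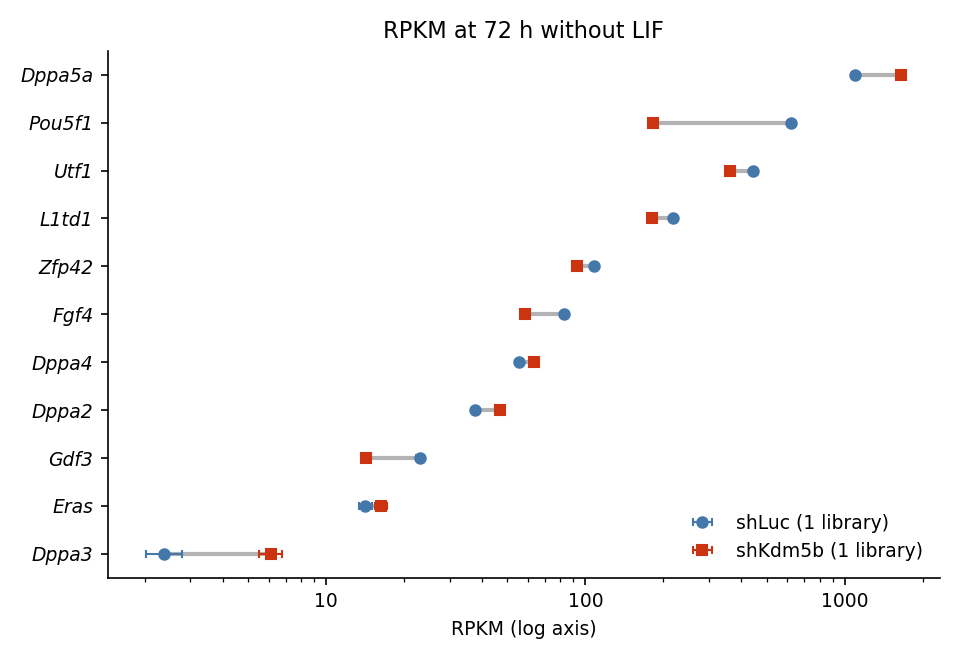
RPKM of *Pou5f1* and the 10 ES cell marker genes at 72 h on a log10 axis, with 1 point for the shLuc library and 1 for the shKdm5b library and exact 95% Poisson counting intervals. The points of *Pou5f1* lie far apart (619 and 182 RPKM), those of most marker genes lie closer together, and *Dppa3* is the lowest in both libraries.

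As deposited, 5 marker genes were higher and 5 were lower in shKdm5b, and each of the 10 counting intervals excluded 0. Scaling of the libraries by TMM or by median-of-ratios raised every ratio by 0.22 or 0.24, which left *Zfp42* near 0 (0.00035 or 0.017) and the other directions as they were. A threshold of 1.5-fold was set for genes that exceeded 1 RPKM in either library, and 3 of the 10 were past it, *Dppa3* and *Dppa5a* higher and *Gdf3* lower. Among all genes compared 48.3% were past this threshold, 16.3% higher and 32.0% lower. In numbers, 1921 genes were higher and 3781 lower, a split that became 2864 and 2758 under TMM. The 3 of 10 marker genes were a smaller share than this background, over few genes. Summed over the 10 genes, the level was 2081 RPKM in shLuc and 2491 in shKdm5b. *Dppa5a* alone made up 52.7% and 66.3% of these sums, and without it they were 985 and 840 RPKM.

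The order of the levels was nearly the same in both libraries. *Dppa5a*, *Utf1*, *L1td1* and *Zfp42* were the 4 highest in that order in each, and *Dppa3* was the lowest. *Fgf4* (82.9 RPKM) stood above *Dppa4* (55.6 RPKM) in shLuc and below it in shKdm5b (58.4 and 63.5 RPKM). *Gdf3* (23.0 RPKM) and *Eras* (14.2 RPKM) also changed places, at 14.2 and 16.3 RPKM in shKdm5b, and the counting intervals of neighbours did not overlap in either of these pairs. In bulk RNA, fewer cells that express a gene and less RNA per cell cannot be told apart.

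As deposited, the 4 developmental pluripotency associated (Dppa) genes of the set were higher in shKdm5b, by very different amounts. After a correction for GC content and length given further on, *Dppa5a* was not higher. *Dppa2* (log2 ratio 0.02) and *Dppa4* (0.07) were then nearly level. *Dppa5a* (ESG1) encodes an RNA-binding protein with a KH domain and was the most abundant of the 10 transcripts. It had 54763 reads and 1096 RPKM in shLuc against 76703 reads and 1651 RPKM in shKdm5b, a 1.51-fold difference (log2 ratio 0.59, 0.57 to 0.61) that only just passed the threshold. In shLuc it stood at 177% of the *Pou5f1* RPKM and in shKdm5b at 906%.

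*Dppa3* (STELLA), a factor of naive ES cells, oocytes and germ cells that protects DNA methylation in the early embryo, was the rarest of the 10 and had the largest ratio. Its 152 reads in shLuc and 364 in shKdm5b gave 2.38 and 6.12 RPKM, 2.57-fold higher in shKdm5b (log2 ratio 1.33, 1.09 to 1.65). Few reads make its interval the widest of the group, but the lower bound remained past 1.5-fold.

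*Dppa2* and *Dppa4* encode SAP domain proteins that act as a pair on chromatin. The genes are neighbours on chromosome 16, 9670 bases apart in GRCm38 (*Dppa4* at chr16:48283733-48294237 and *Dppa2* at chr16:48303908-48319723, both on the plus strand). *Dppa2* had 37.4 RPKM in shLuc and 46.9 in shKdm5b (log2 ratio 0.32, 0.27 to 0.38). *Dppa4* had 55.6 and 63.5 RPKM (log2 ratio 0.19, 0.14 to 0.24), and its second transcript entry gave 0.12. Both stayed within 1.5-fold. After the GC correction alone *Dppa2* had 0.07 and *Dppa4* 0.32. The Dppa genes have near copies in the genome. In GENCODE M21 transcripts, 38.6% of the 50-base words of *Dppa5a* (the length of the reads), 37.2% of *Dppa4*, 36.7% of *Dppa2* and 17.7% of *Dppa3* also occur in transcripts of other genes, among them *Dppa5b*, *Dppa5c* and *Dppa3-ps*. The share was 15.9% for *Pou5f1*, mostly with the overlapping antisense gene *Gm19553*, and 9.52% for *Zfp42*, whereas *Utf1* and *Fgf4* share no such word. How reads with several matches were counted on transcripts is not stated for the RNA-Seq data. The values of genes with a large share in near copies are therefore less certain. For *Pou5f1* most shared words belong to a gene that overlaps it on the opposite strand, and not to a copy elsewhere. Its value is less certain mainly for another reason, since the labels name no step that keeps the strand.

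The transcripts of the nuclear proteins REX1 and UTF1 and of the RNA-binding L1TD1 were slightly lower in shKdm5b, within 1.5-fold, but *Zfp42* was level under TMM and *Utf1* turned higher after a GC correction. *Zfp42*, which encodes the zinc finger protein REX1, had 15161 and 12111 reads, or 108 and 92.5 RPKM (log2 ratio -0.22, -0.25 to -0.18). The median of all genes was -0.21. *Utf1*, which encodes a chromatin-bound protein of undifferentiated cells, had 40244 and 30527 reads, or 444 and 362 RPKM (log2 ratio -0.29, -0.32 to -0.27). Relative to *Pou5f1*, *Utf1* stood at 71.7% in shLuc and at 199% in shKdm5b, so that the order of the pair was reversed between the libraries. *L1td1*, which encodes an RNA-binding protein derived from a LINE-1 element, had 218 and 181 RPKM (log2 ratio -0.27, -0.29 to -0.25). At 35.2% of *Pou5f1* in shLuc, it nearly equalled it in shKdm5b (99.0%).

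As deposited, the genes of secreted ligands had the lowest ratios of the 10, but *Zfp42* lay below *Fgf4* after either correction for GC content. *Fgf4*, the fibroblast growth factor through which ES cells signal to themselves via ERK, had 19643 reads in shLuc and 12854 in shKdm5b. Its levels were 82.9 and 58.4 RPKM (log2 ratio -0.51, -0.54 to -0.47), short of 1.5-fold. *Gdf3*, a ligand of the TGF-beta family, had 3789 and 2179 reads, or 23.0 and 14.2 RPKM (log2 ratio -0.69, -0.77 to -0.62), and was the single marker gene past 1.5-fold in the lower direction. *Gdf3* was also the one nearest to *Pou5f1*, and still 1.07 above it on the log2 scale (0.99 to 1.15).

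*Eras*, which encodes a Ras protein of ES cells that is active without a stimulus and promotes growth through PI3 kinase, went the other way. It had 1194 and 1275 reads, or 14.2 and 16.3 RPKM (log2 ratio 0.20, 0.08 to 0.31). Its interval came closest to 0 of the 10. Its 3′ end overlaps *Pcsk1n* on the opposite strand, with 8.37% of its 50-base words shared, and the labels name no step that keeps the strand. *Pcsk1n* itself had a log2 ratio of 0.17.

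**Figure D2:**
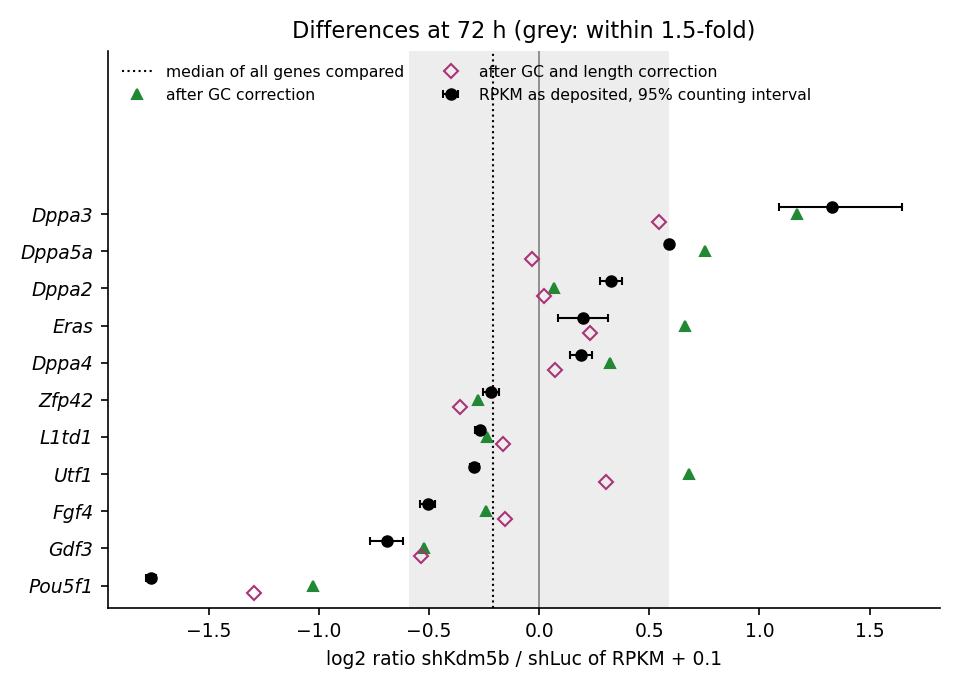
Log2 ratio of shKdm5b over shLuc (RPKM + 0.1) for the 10 ES cell marker genes and *Pou5f1*, as deposited with 95% counting intervals (black), after a GC correction (green) and after a GC and length correction (open diamonds). The grey band is 1.5-fold and the dotted line the median of all genes, -0.21. *Pou5f1* lies left of every marker gene in each of the 3 forms.

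The ratio between these libraries moved with the GC content of the transcript. Across 11535 genes with both values the Spearman correlation was -0.53, as a description over genes that share the same pair of libraries. When the genes were ordered by GC content and divided into 10 bins of like size, the median log2 ratio was 0.48 in the bin of lowest GC content and -0.88 in that of highest. *Pou5f1*, at 57.6% GC, sat in the bin next to the highest, with a median of -0.75, and *Utf1*, at 63.5%, in the highest bin. The other marker genes had 43.9% (*Dppa2*) to 53.4% (*Eras*). The part of GC content in the differences was not tested.

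Values after the fitted GC curve was taken out stood as follows. *Pou5f1* had a log2 ratio of -1.03, and each of the 10 marker genes again lay above it. *Utf1* turned from -0.29 to 0.68, and *Eras* went from 0.20 to 0.66. *Dppa3* (1.17) and *Dppa5a* (0.75) remained past 1.5-fold, so that 4 of 10 were past it, all higher, where 37.0% of all genes were past it in either direction. *Gdf3*, at -0.52, was no longer past it. The median of the 10 was then 0.19, against -0.02 over all genes.

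With a curve on transcript length taken out as well, 0 of the 10 marker genes were past 1.5-fold and 32.2% of all genes were, *Pou5f1* among them at -1.29. *Dppa5a*, the shortest of the 10 entries at 639 bases, went to -0.03 and *Dppa3*, the next shortest at 818 bases, to 0.54. The height of these 2 genes therefore depended on how length was treated. Each of the 10 still lay above *Pou5f1*. Under this correction 5 genes were above 0 and 5 below, *Utf1* now above and *Dppa5a* now below.

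**Figure D3:**
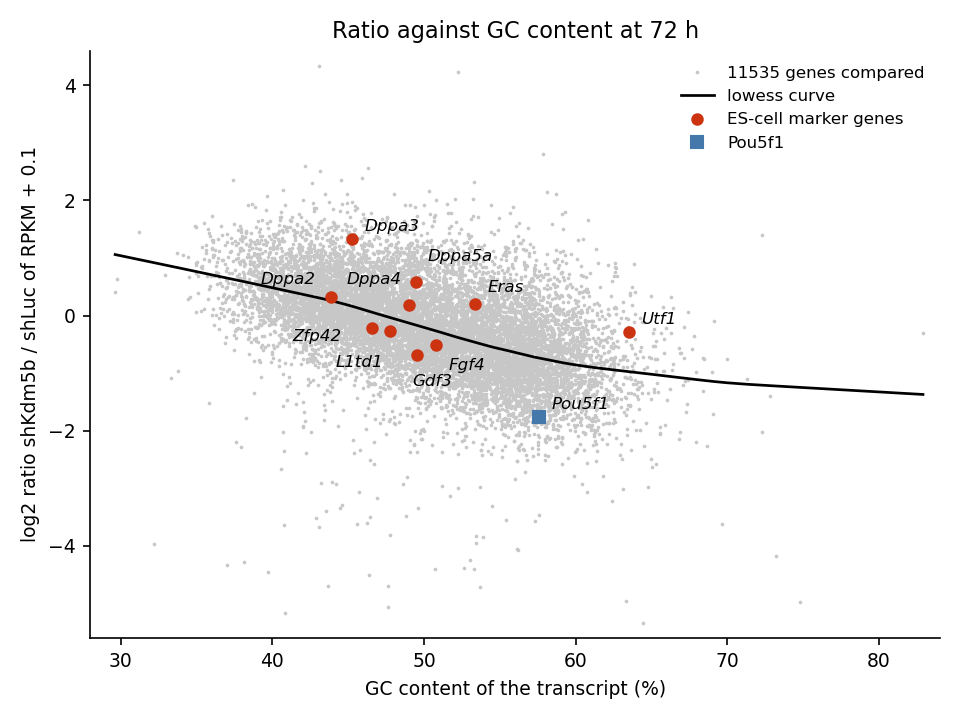
Log2 ratio of shKdm5b over shLuc (RPKM + 0.1) against the GC content of the transcript in percent for 11535 genes (grey), with a lowess curve (black), the 10 ES cell marker genes (red) and *Pou5f1* (blue square). The curve declines with GC content, *Utf1* lies above it on the right and *Pou5f1* lies below it.

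Measured against *Pou5f1* as deposited, the log2 ratios of the marker genes were higher by 1.07 (*Gdf3*) to 3.13 (*Dppa3*). Since 3.17% of all genes compared lay below *Pou5f1*, a higher ratio than that of *Pou5f1* is what nearly any gene had and is not particular to the markers. For the known OCT4-SOX2 targets *Fgf4* and *Utf1* the distance was 1.26 and 1.47. For *Zfp42* it was 1.54 (1.50 to 1.59), as it went from 17.4% to 50.7% of the *Pou5f1* RPKM. These distances and their order depended on the processing. After the GC correction *Pou5f1* had a log2 ratio of -1.03, *Gdf3* -0.52, *Zfp42* -0.28, *Fgf4* -0.24 and *Utf1* 0.68. The partner gene *Sox2* had 237 RPKM in shLuc and 272 in shKdm5b, a log2 ratio of 0.20.

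Other transcription factors of the ES cell network gave a mixed picture. Of 15 compared, 0 were past 1.5-fold higher and 4 were lower, with a median of -0.09, where 48.3% of all genes were past it. The split depended on the processing, with 1 higher and 3 lower under TMM, and 2 higher and 1 lower after the GC correction. The 4 lower genes as deposited were *Pou5f1*, the orphan nuclear receptor genes *Esrrb* (80.5 and 41.2 RPKM, log2 ratio -0.96) and *Nr0b1* (7450 and 4308 reads, -0.68), and *Tcf3* (9075 and 4822 reads, -0.80). In these files *Tcf3* is the gene of E2A and not *Tcf7l1*, the ES cell network factor that also goes by TCF3, so it stands in the list by its symbol alone. After the GC correction *Esrrb* had -0.31, *Nr0b1* -0.09 and *Tcf3* 0.12, none of them past 1.5-fold. The 2 genes higher after that correction were *Klf2* (1.10) and *Klf4* (0.75). *Nanog*, which lies 77216 bases from *Dppa3* on chromosome 6, had 90.2 and 85.0 RPKM (-0.09). As deposited, *Pou5f1* had the lowest ratio of this list.

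Of 22 further genes enriched in ES cells, 8 were lower and 1 was higher past 1.5-fold as deposited, with a median of -0.20. Of all genes, 32.0% were lower and 16.3% higher, and the split of this list was 6 lower and 3 higher under TMM and 6 lower and 4 higher after the GC correction. The higher gene was *Epcam*, an adhesion molecule, at 91.0 and 180 RPKM (0.98). The lower genes included *Tdh*, the threonine dehydrogenase that feeds ES cell metabolism (115 and 49.9 RPKM, -1.21), *Lefty1*, an inhibitor of Nodal (90.7 and 53.6 RPKM, -0.76, but 0.03 after the GC correction), and *Jarid2*, a partner of the Polycomb complex (113 and 65.3 RPKM, -0.79). The cell cycle factor *Mybl2* (-1.31), *Trim71* (-1.27), *Tex19.1* (-1.21) and *Upp1* (-1.05) were also lower. After the GC correction *Jarid2* (-0.52) and *Upp1* (-0.48) were within 1.5-fold. *Tdh* (-0.74), *Mybl2* (-0.65), *Trim71* (-0.78) and *Tex19.1* (-0.81) were still past it. *Dppa1*, a gene with the same name stem as the Dppa markers, had 0 reads in both libraries, where 3 reads would give 0.0170 RPKM in shLuc and 0.0182 in shKdm5b.

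Of 14 family relatives of the marker genes that were compared, 3 were higher past 1.5-fold and 5 were lower, or 57.1% against 48.3% of all genes. Their median was -0.23 as deposited and 0.17 after the GC correction. *Hras1*, a relative of *Eras*, was lower (20.5 and 8.76 RPKM, -1.22, but -0.36 after the GC correction). *Yy1* (0.72) and *Yy2* (0.76), the relatives of *Zfp42*, were higher (0.97 and 0.23 after the GC correction), and the zinc finger gene *Zfp41* was lower (-1.48). Of the ligands, *Gdf1* (-1.35), *Lefty1* and *Fgf3* (-0.84) were lower as deposited, and the other ligands of the list were within 1.5-fold. After the GC correction *Gdf1* had -0.35, *Lefty1* 0.03 and *Fgf3* -0.22, none of them past 1.5-fold. The ligand genes *Nodal* (0.71) and *Fgf8* (0.69) and the Ras gene *Rras* (1.22) were then past it, higher. *Nras* (-0.75) and *Zfp41* (-1.06) were then past it, lower.

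Genes of the formative and primed epiblast, the stage that ES cells pass through next, had a median of -0.48 over 8 compared. As deposited, 3 of them were lower (*Dnmt3a* -0.71, *Sox3* -0.85, *Sall2* -0.71) and 0 higher, or 37.5% against 48.3% of all genes. This split turned to 2 higher and 1 lower under TMM and to 2 higher and 0 lower after the GC correction, where the median was 0.06 and *Sox3* had 0.20. Early lineage genes were split, 3 higher and 3 lower of 8 compared, or 75% against 48.3% of all genes. Their median was 0.33 as deposited and 0.86 after the GC correction. The split was 4 higher and 3 lower under TMM or after the GC correction, where 47.2% and 37.0% of all genes were past 1.5-fold. *Eomes* (0.70), *Nes* (0.83) and *Krt18* (0.66) were higher, and the endoderm factors *Gata4* (2.58 and 0.539 RPKM, -2.07) and *Gata6* (-1.62) and the keratin gene *Krt8* (-1.35) were lower. The feeder marker *Acta2*, at 1.91 and 1.18 RPKM, had a ratio of -0.65. The lists hold few genes, and their counts are descriptions of these libraries.

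**Figure D4:**
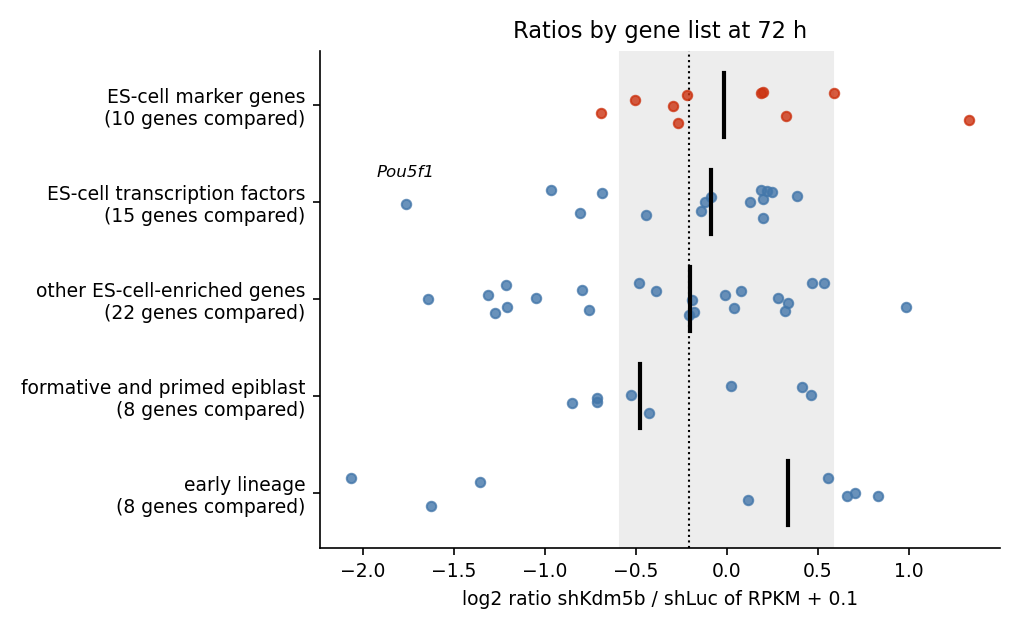
Log2 ratio of shKdm5b over shLuc (RPKM + 0.1) of each compared gene in 5 lists, with 1 point per gene and a bar at the list median. The grey band is 1.5-fold and the dotted line the median of all genes. The marker genes have a median of -0.01 with no gene below -0.69, whereas the transcription factor list reaches down to -1.76 (*Pou5f1*).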

How the data were processed

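Polyadenylated RNA of shLuc and shKdm5b R1 ES cells was measured with 1 library per condition. For each of 27405 RefSeq transcript entries the authors deposited a read count, the transcript length and the RPKM, which normalizes that count to length and to the aligned reads. The deposited read files hold 50-base alignments, used here only for their totals, and a further column of whole numbers was not used because its meaning is not stated. The submitters' processing notes name CASAVA 1.0, Bowtie 0.12.7 and the mm8 build; how RNA-Seq reads were counted is not given in the sources used here. The study's methods state, for ChIP-Seq, that reads with several genomic matches were dropped on mapping with Bowtie to mm8, and do not say so for RNA-Seq.

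Where a symbol had several entries, that of highest mean RPKM stood for the gene. Log2 ratios were taken of RPKM + 0.1. A gene was compared if its RPKM was above 1 in at least 1 library, and was past the threshold above 1.5-fold. With 1 library per condition there was no test. Intervals are exact (Clopper-Pearson for ratios, Poisson for levels) at 95% and cover counting error only. The marker genes, the lists and the corrections were chosen with earlier results of these data known. Of the lists, the genes past the threshold were named, with *Sox2*, and *Nanog* was added after its values were seen, as were *Thy1*, *Postn*, *Pcsk1n* and *Dppa1*. Some genes that this rule includes are counted but not reported by name here. Genes named only for a value past 1.5-fold after the GC correction were also added after their values were seen. The motifs and the promoters shown were also chosen with values known.

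GC content and positions came from GENCODE M21 (GRCm38) through the RefSeq accession, for 97.1% of symbols. They describe the genes and not the mm8 alignment. The GC and length corrections took out lowess curves (fraction 0.3, statsmodels 0.14.6). Alternatives were other pseudocounts (1 and 0.01), summed entries, other minima and folds, scaling by the median, by edgeR 4.0.16 TMM or by DESeq2 1.42.0 size factors, and the edgeR exact test at assumed dispersions of 0, 0.04 and 0.16 with an FDR below 0.001. The thresholds, the corrections, the scalings and the exact test were run on simulated reads with counting noise only. A GC effect was put into some of these reads but no effect of length, so the removal of a length effect was not tested. Python 3.11.15, pandas 2.3.3, NumPy 2.4.6, SciPy 1.17.1 and R 4.3.3 were used. The median gene compared had 1859 reads in shLuc and 1511 in shKdm5b.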

Additional observations from a re-analysis of the deposited data

How the results depend on the processing

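The count of 3 marker genes past 1.5-fold became 0 after the GC and length correction, 1 with a threshold of 2-fold, and 0 with the edgeR exact test at an assumed dispersion of 0.04 or 0.16, where 272 and 1 of all genes were past it and *Pou5f1* was not. It was 4 after the GC correction, 2 under each scaling and with an RPKM above 11, and 3 under the other settings. For the 10 genes, the median log2 ratio was 0.15 under median scaling, 0.20 under TMM, 0.22 under median-of-ratios and 0.19 after the GC correction. *Dppa5a* reversed to -0.032 after the GC and length correction. Over all lists, the 30 genes past 1.5-fold became 18 with an RPKM above 11, 14 with 2-fold, and 1 and 0 at the dispersions of 0.04 and 0.16. Their split, 7 higher and 23 lower, became 12 and 19 under median scaling, 14 and 17 under TMM, 14 and 16 under median-of-ratios, 17 and 12 after the GC correction and 19 and 13 with length corrected too. Over all genes, those past 1.5-fold, 1921 higher and 3781 lower, became 2621 and 3009 under median scaling, 2945 and 2697 under median-of-ratios, 2226 and 2086 after the GC correction and 1822 and 1926 after the GC and length correction. *Pou5f1* ranged from -1.76 to -1.03. The causes of these shifts were not tested, and the real dispersion between cultures is unknown.

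No paired analysis was possible because shLuc and shKdm5b were sequenced once, and no library was left out in turn for that reason. Counting each alignment position once was not run, since the entries have no coordinates on the build of the alignments.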

Other observations

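The genes next to the markers in GRCm38 were read as well, a choice made after seeing the data. *Gdf3*, *Dppa3* and *Nanog* lie close together on chromosome 6, with 16322 bases between *Gdf3* and *Dppa3*, and their log2 ratios were -0.69, 1.33 and -0.09. *Apobec1*, which encodes a cytidine deaminase and lies 2958 bases from *Gdf3*, had 537 reads in shLuc and 831 in shKdm5b (log2 ratio 0.72). *Slc2a3*, a glucose transporter gene on the far side of *Dppa3*, had 320 and 238 RPKM (-0.43). Neighbours in this cluster thus had ratios of either sign.

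Beside *Zfp42*, *Triml2* had 26.2 RPKM in shLuc and 22.5 in shKdm5b (log2 ratio -0.22) and *Triml1* had 10.4 and 9.10 RPKM (-0.19). Both were close to the -0.22 of *Zfp42*, but also to the median of all genes, -0.21, so the likeness is not particular to this locus. *Ooep*, a gene of the oocyte beside *Dppa5a*, had 53.0 and 39.9 RPKM (-0.41), while *Dppa5a* was higher in shKdm5b. On one side of *Fgf4*, *Fgf3*, 2930 bases away, had 125 and 61 reads (-0.84). On the other side *Fgf15* had 72.8 and 65.0 RPKM (-0.16), and *Ccnd1* beyond it had 57.0 and 29.9 RPKM (-0.93). Of the genes on either side of *L1td1*, *Tm2d1* (1.14) was higher and *Kank4* (-0.98) was lower.

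The genes read around *Pou5f1* on chromosome 17 were also lower past 1.5-fold, as were 32.0% of all genes compared. Their ratios were not all alike, and *H2-Q7* had 209 reads in shLuc and 112 in shKdm5b (log2 ratio -0.75). *Tcf19*, 1961 bases away, had 583 reads in shLuc and 195 in shKdm5b (log2 ratio -1.42), *Cchcr1* had 694 and 222 reads (-1.46), and *H2-Q10* had 172 and 51 reads (-1.47). All are expressed at a small part of the *Pou5f1* level, and whether the GC content of these neighbours moves with their ratios was not tested.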
